A study of Mus musculus with 15 samples.

Results

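The corticotrophin-releasing hormone family of the mouse islet was described here through 7 genes, which were taken from the deposited table by their gene symbols. They encode the ligands corticotrophin-releasing hormone (Crh), urocortin (Ucn), urocortin 2 (Ucn2) and urocortin 3 (Ucn3), the secreted binding protein (Crhbp) and the receptors Crhr1 and Crhr2. All 7 were present among the 38283 genes of the table, 5 had a value above 0 in at least 1 sample, and 2, Ucn3 and Crhr2, were high enough to enter the fit across all genes. The study sequenced RNA from flow-sorted islet cells of C57BL/6 mice, with 5 alpha, 4 beta and 6 delta cell samples. Alpha and beta cells came from Glu-Venus mice, in which the fluorescent protein Venus is made under the proglucagon promoter, alpha cells being the Venus-positive cells and beta cells being taken from the Venus-negative cells by their size and autofluorescence. Delta cells came from Sst-CreXROSA26EYFP/EYFP mice, in which Cre recombinase under the somatostatin promoter switches on EYFP from the Rosa26 locus. Each sample held islets pooled from several mice, and since delta cells came from another mouse line, effects of line and of cell type on them cannot be told apart. No treatment separated the groups, and the labels used here give no age.

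Peptides of this family act on 2 G protein-coupled receptors that couple mainly to Gs, so that ligand binding raises cyclic AMP through adenylyl cyclase. Crh acts chiefly on CRHR1, urocortin acts on both receptors, and urocortins 2 and 3 are selective for CRHR2, while the binding protein holds Crh and urocortin away from their receptors. In the islet, urocortin 3 is known as a product of mature beta cells that is stored with insulin, and it is known to act on delta cells, which release somatostatin, the peptide that restrains both insulin and glucagon secretion.

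The sequences just upstream of Ucn3 and Crhr2 are shown because these 2 members carry the differences between cell types. Both are the 250 bases before the RefSeq transcription start, on the minus strand of GRCm38.p6. Ucn3 lies on chromosome 13 (3940688 to 3945349, minus strand, with a single 1478-nucleotide transcript of 2 exons in GENCODE M21) and its window is chr13:3945350-3945599. Crhr2 lies on chromosome 6 (55090049 to 55133016, minus strand, longest transcript 2924 nucleotides) and its window is chr6:55133017-55133266. Capitals mark matches, on either strand, to 5 letter strings that were searched for, namely TGACGTCA (the cyclic AMP response element), TATAAA (the TATA box), CANNTG (the E-box), TAAT (the homeodomain core) and TGCTGA (a partial MAF site).
Ucn3: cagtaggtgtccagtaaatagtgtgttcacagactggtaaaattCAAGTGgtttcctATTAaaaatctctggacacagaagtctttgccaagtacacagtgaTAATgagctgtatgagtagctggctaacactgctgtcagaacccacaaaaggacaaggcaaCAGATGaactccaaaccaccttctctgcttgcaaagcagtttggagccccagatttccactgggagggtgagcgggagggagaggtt
Crhr2: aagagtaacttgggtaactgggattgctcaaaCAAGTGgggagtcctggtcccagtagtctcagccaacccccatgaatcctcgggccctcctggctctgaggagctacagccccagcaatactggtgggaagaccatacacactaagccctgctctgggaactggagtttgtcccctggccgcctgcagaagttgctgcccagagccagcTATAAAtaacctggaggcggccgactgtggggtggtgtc

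The Ucn3 window held 2 matches to TAAT and 2 to CANNTG, strings that were present in 54.9% and 66.2% of the 32851 RefSeq windows of the same length. The Crhr2 window held 1 match to TATAAA, present in 12.4% of windows, and 1 to CANNTG. Neither window held TGACGTCA (1.55% of windows) or TGCTGA (16.1% of windows), and no match overlapped another. RefSeq windows were matched by symbol for 5 of the 7 members. These matches are a description of letters and were not tested for binding.

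Values are in FPKM, sequenced fragments scaled by the length of the transcript and by the depth of the sample, which allows genes to be compared within a sample. For the 6 samples in which steps of single reads could be resolved, depth was estimated at 7580000 to 30200000 reads, and for the other 9, which included all 4 beta cell samples, depth is unknown. Summing the FPKM of ribosomal protein genes split the samples into 2 sets, a high set of 3 alpha, 1 beta and 2 delta cell samples (65596 to 140964) and a low set of 2 alpha, 3 beta and 4 delta cell samples (7912 to 38761). The beta cell sample of the high set, beta 2, also stood apart in the hormones of the other cell types, with 1817 FPKM of Gcg (glucagon) against 166.0 to 299.0 in the other 3 beta cell samples. Results for members are therefore given with and without it, or within each set. For the main hormone of each cell type, Gcg was at 184400 FPKM or above in every alpha cell sample. Ins2 (insulin) was at 91250 or above in every beta cell sample and Sst (somatostatin) at 101500 or above in every delta cell sample. Ins1, the other insulin gene, whose reads could be shared with its near-identical copy Ins2, was at 26230 FPKM or above in beta cells and at most 3583 elsewhere. Ppy, which encodes pancreatic polypeptide and marks another endocrine cell type, was at 17730 to 41390 FPKM in alpha cells and 10860 to 48600 in delta cells, against 17.0 to 98.1 in beta cells. The difference in Ppy was -9.59 for beta minus alpha (adjusted p = 6.93e-08, limma, on the scale of log2(FPKM + 1)) and 8.91 for delta minus beta (adjusted p = 7.13e-08, limma), while delta minus alpha was -0.69 (adjusted p = 0.583, limma). Ghrl (ghrelin) did not exceed 1.10 FPKM in any sample.

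**Figure D1:**
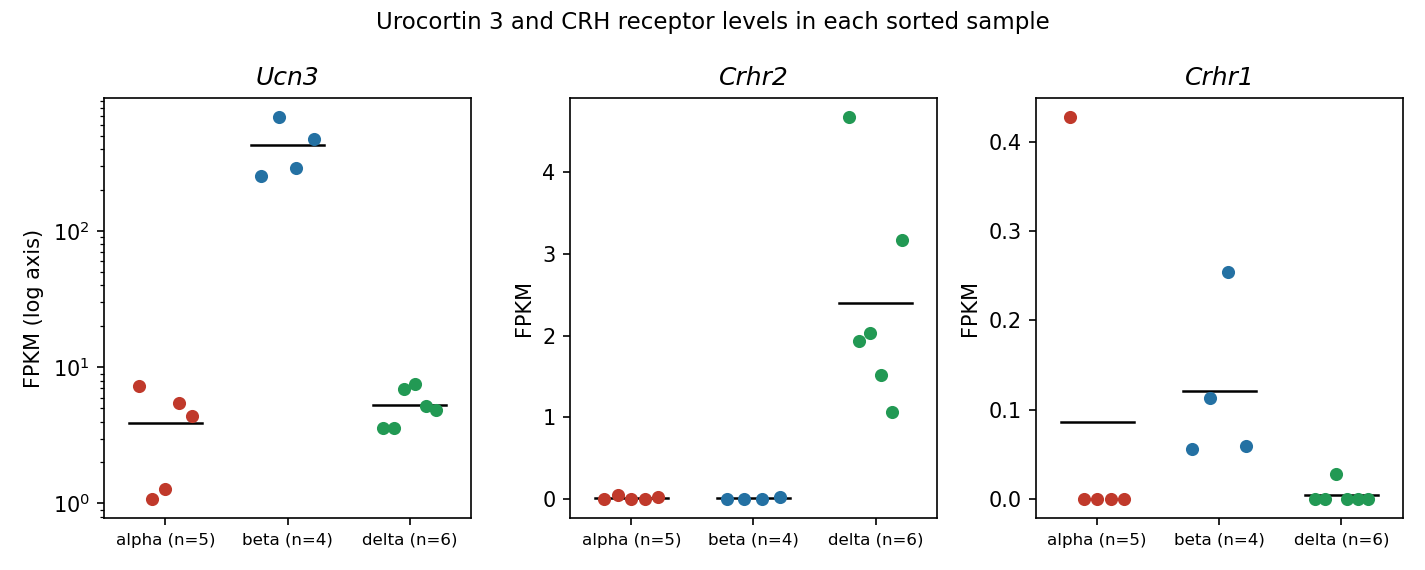
Levels of Ucn3, Crhr2 and Crhr1 in each sample. Each point is 1 sorted sample in FPKM (a log axis for Ucn3, linear axes for the others) and the horizontal line is the mean of its cell type. Beta cells had the highest Ucn3, from 256.2 to 690.2 FPKM, and delta cells the highest Crhr2, from 1.06 to 4.68 FPKM, while no Crhr1 value exceeded 0.428 FPKM.

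Which islet cells make the ligand was asked first. Ucn3 was at 256.2, 690.2, 291.7 and 476.5 FPKM in the 4 beta cell samples, at 7.26, 1.08, 1.29, 5.45 and 4.36 FPKM in the 5 alpha cell samples, and at a lowest of 3.58, a median of 4.99 and a highest of 7.57 FPKM in the 6 delta cell samples. The lowest beta cell sample was 35.3-fold above the highest alpha cell sample and 33.9-fold above the highest delta cell sample, so that beta cells did not overlap with either, whereas alpha and delta cells overlapped over most of their range. The mean was 428.6 ± 199.3 FPKM in beta (SD, n = 4), 3.89 ± 2.68 in alpha (SD, n = 5) and 5.28 ± 1.67 in delta cells (SD, n = 6), and by this mean Ucn3 ranked 120 among the genes detected in beta cells, 8002 in alpha cells and 7336 in delta cells. The beta mean was 110-fold the alpha mean and 81.3-fold the delta mean.

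On the scale of log2(FPKM + 1), on which all fitted differences are given here, Ucn3 in beta cells exceeded that in alpha cells by 6.55 (SE 0.458, adjusted p = 2.57e-07, limma with Benjamini-Hochberg adjustment over all 14405 genes tested). The difference of delta minus beta was -6.03 (SE 0.440, adjusted p = 1.61e-07, limma). The delta minus alpha difference of 0.53 did not pass the test (SE 0.413, adjusted p = 0.603, limma). As background, the comparison of beta with alpha cells called 7.66% of all genes tested, of which those above alpha made up 2.84% and those below it 4.82% of genes tested. For delta with beta cells the share called was 14.7% (11.7% above beta, 2.99% below), and for delta with alpha cells it was 6.81% (5.33% above alpha, 1.48% below). By size of difference Ucn3 ranked 6 from the top between beta and alpha cells and 8 from the bottom between delta and beta cells. Exact 2-sided permutation tests of Ucn3 alone gave p = 0.0159 for beta against alpha and p = 0.00952 for delta against beta, each the smallest these group sizes allow, and p = 0.242 for delta against alpha.

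The beta cell mean of Ucn3 without beta 2 was 341.4 FPKM, which was 87.9-fold the alpha mean and 64.7-fold the delta mean. In the low set alone, the means were 4.90 in alpha (n = 2), 341.4 in beta (n = 3) and 6.12 FPKM in delta cells (n = 4). In the high set they were 3.21 in alpha (n = 3), 690.2 in the single beta cell sample and 3.59 FPKM in delta cells (n = 2). The order of beta above the other 2 was thus the same in each set.

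The low Ucn3 of alpha and delta cells was set beside insulin, since both are products of beta cells. For each 1000 FPKM of Ins2, Ucn3 stood at 0.251 to 1.03 FPKM in alpha cells (median 0.792), 0.651 to 1.38 in delta cells (median 0.916) and 0.457 to 5.22 in beta cells (median 2.10). Alpha and delta cells overlapped. The overlap of beta cells with them rested on beta 3, which had the highest Ins2 of the 15 samples at 638900 FPKM, and the other 3 beta cell samples, at 2.10 to 5.22, lay above every alpha and delta cell sample. In bulk samples a few cells of another type and a low level of RNA in every cell cannot be told apart, and the part of stray beta cell RNA in these values was not tested.

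**Figure D2:**
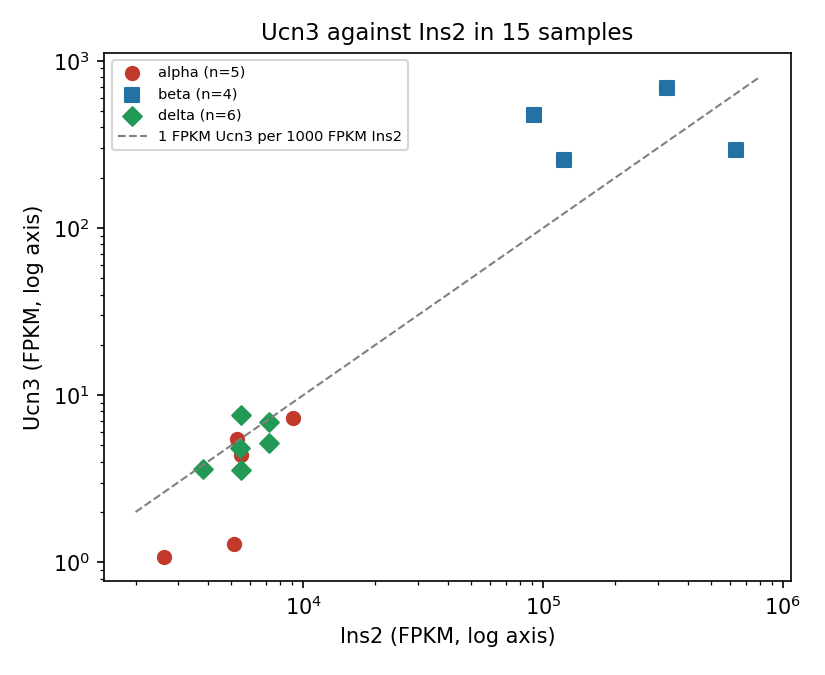
Ucn3 against Ins2 in the 15 samples, both in FPKM on log axes, with colour and marker giving the cell type. The dashed line marks 1 FPKM of Ucn3 for each 1000 FPKM of Ins2. Alpha and delta cell samples lie between 1.08 and 7.57 FPKM of Ucn3, with alpha 4 and delta 4 above the line and the others below it. Of the 4 beta cell samples 3 lie above the line and beta 3 below it.

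A list of 14 genes of mature beta cells was placed beside Ucn3, all of which entered the fit. In beta against alpha cells 11 of the 14 rose and 0 fell, with a median difference of 4.96 where all genes tested had -0.13 and 2.84% of them rose. In delta against beta cells 13 fell and 0 rose, with a median of -3.53 where all genes had 0.30 and 2.99% of them fell. These counts include Mafa, a beta cell transcription factor, which passed the filter through beta cells alone, so that a call could only have it higher there. The list was made of known beta cell genes, the insulin genes among them, with earlier results of these data known. The direction of its counts is therefore no finding. Ucn3 was among the genes with the lowest share outside beta cells, its mean in alpha cells being 0.907% and in delta cells 1.23% of the beta mean. Slc2a2, which encodes the glucose transporter GLUT2, stood at 0.779% in alpha and 1.07% in delta cells. Ins2 stood at 1.87% and 1.95% of a beta mean that rested on samples from 91250 to 638900 FPKM.

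Between the 2 non-beta cell types, Pdx1, Iapp and Glp1r of that list were called higher and Slc30a8 lower in delta than in alpha cells. Among all genes tested 6.81% were called in this comparison. Slc30a8, which encodes the zinc transporter of secretory granules, was at 93.6% of the beta mean in alpha cells and at 0.848% in delta cells (delta minus alpha -6.14, SE 0.480, adjusted p = 4.28e-07, limma). Glp1r, the receptor for the incretin GLP-1, stood at 1.14% in alpha and 19.2% in delta cells. G6pc2, which encodes a glucose-6-phosphatase subunit of the islet, stood at 2.02% in alpha and 0.480% in delta cells. Its beta mean rested on samples from 596.2 to 5341 FPKM. Ero1lb, which acts in folding of proinsulin, stood at 2.37% and 0.923%. The delta minus alpha differences, -1.89 for G6pc2 (adjusted p = 0.0813, limma) and -1.37 for Ero1lb (adjusted p = 0.122, limma), did not pass the test. The mean of Pdx1, a transcription factor of beta and delta cells, was 102% of the beta mean in delta cells, the 1 gene of the list that was not lower in delta than in beta cells by the test.

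**Figure D3:**
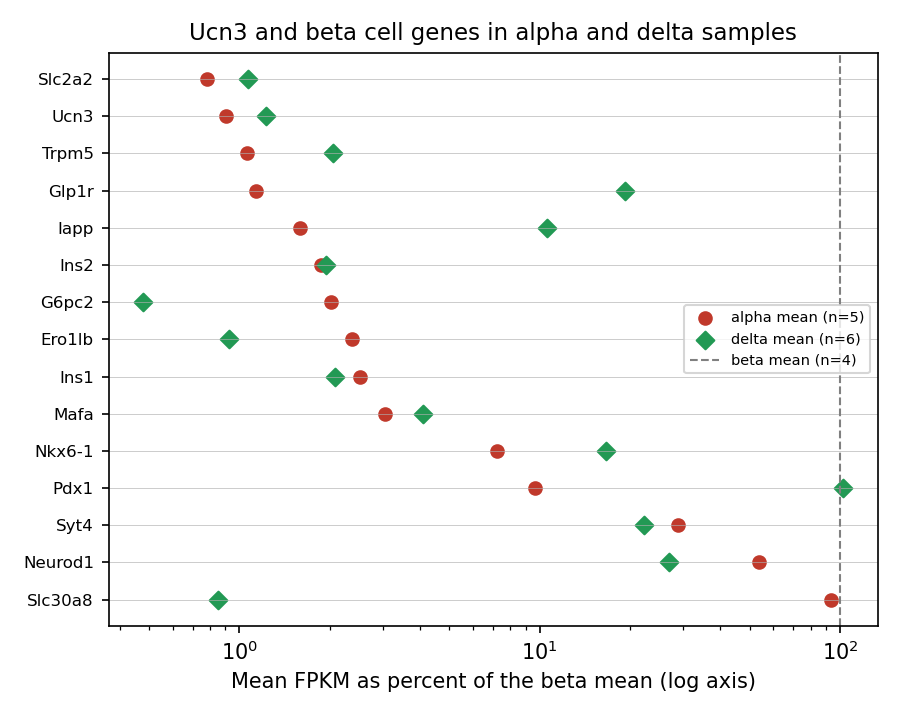
Mean FPKM of Ucn3 and 14 beta cell genes in alpha cells (circles, n = 5) and delta cells (diamonds, n = 6), as a percent of the mean in beta cells (dashed line, n = 4), on a log axis. Ucn3, at 0.907% in alpha and 1.23% in delta cells, lies at the low end with Slc2a2, whereas Slc30a8 in alpha cells and Pdx1 in delta cells lie near the beta mean.

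The genes whose profile over the 15 samples was most like that of Ucn3, by Pearson correlation of log2(FPKM + 1), were Car10 (r = 0.993), St8sia1 (0.979), Slc2a2 (0.976), Gad1 (0.973) and CT030166.1 (0.973). The 15 points fall into cell types, so that these values mainly describe a contrast of beta cells with the rest. Car10, a member of the carbonic anhydrase family, was at 15.1, 38.0, 16.6 and 27.1 FPKM in the beta cell samples, which put these samples in the same order as Ucn3 did. Its highest value in any alpha or delta cell sample was 1.00 FPKM. Gad1, which encodes an enzyme that makes GABA, was at 24.4, 40.8, 10.6 and 14.6 FPKM in beta cells and at most 0.567 FPKM elsewhere. CT030166.1 is annotated in GENCODE M21 as a transcribed pseudogene of Gpr137b, so that its reads could have been shared with the parent gene.

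The other ligands and the binding protein were at or near 0. Ucn (chromosome 5, 31138063 to 31138829) and Crh (chromosome 3, 19693401 to 19695396) were listed at 0 in all 15 samples. Ucn2 (chromosome 9, 108986010 to 108987164) was above 0 in delta 5 at 0.0348 FPKM and in delta 6 at 0.0243 FPKM, and Crhbp (chromosome 13, 95431371 to 95444924) in beta 3 at 0.0245 FPKM. In the 6 samples of resolved depth a value of 0 allowed up to 3 reads, which corresponded to 0.0886 to 0.353 FPKM for Crh, 0.326 to 1.30 for Ucn, 0.104 to 0.414 for Ucn2 and 0.0629 to 0.250 for Crhbp. These bounds say how high a level a value of 0 still allows and cover counting error only. No bound can be given for beta cells. None of these 4 genes entered the fit.

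Which cells carry the receptor was the other question. Crhr2 was at a lowest of 1.06, a median of 1.98 and a highest of 4.68 FPKM in the 6 delta cell samples, the highest being delta 1. It was above 0 in 2 of the 5 alpha cell samples, at 0.0523 and 0.0184 FPKM, and in 1 of the 4 beta cell samples, at 0.0265 FPKM. Delta cells therefore did not overlap with alpha or beta cells. The estimated number of reads behind the value was 53.7 to 167.5 in the 4 delta cell samples of resolved depth. It was 1.1 and 1.3 in the 2 alpha cell samples above 0. These estimates take the longest of 9 transcripts of Crhr2 in GENCODE M21, and a shorter transcript would give fewer reads. The mean was 2.40 ± 1.32 FPKM in delta cells (SD, n = 6), which ranked 10360 among the genes with a mean above 0 in these cells.

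The fitted difference in Crhr2 was 1.66 for delta minus alpha (SE 0.268, adjusted p = 0.000682, limma) and 1.67 for delta minus beta (SE 0.285, adjusted p = 0.000844, limma). With a pseudocount of 0.1 FPKM in place of 1 these differences were 4.32 and 4.40, because the pseudocount sets the floor for the near-zero groups, and no ratio of levels is given for the same reason. Between beta and alpha cells the difference was -0.01 (SE 0.297, adjusted p = 1, limma). Exact 2-sided permutation tests gave p = 0.00433 for delta against alpha and p = 0.00952 for delta against beta, the smallest these group sizes allow, and p = 0.873 for beta against alpha. Crhr2 passed the filter of 1 FPKM through delta cells alone, so that a call could only have them as the higher group. In the low set the delta mean was 1.94 FPKM (n = 4), against 0.00921 in alpha (n = 2) and 0.00884 in beta cells (n = 3). In the high set it was 3.31 FPKM (n = 2), against 0.0174 in alpha (n = 3) and 0 in the single beta cell sample.

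Markers of other pancreatic cells also differed between the groups. The summed FPKM of 6 acinar markers was 18.9 to 162.0 in delta cells, 0.122 to 38.1 in alpha cells and 0.0136 to 11.8 in beta cells, with 1 of the 6, Amy2a5, at 0 in every sample, and 1 of the 5 tested, Cela1, higher in delta cells than in either other type. The acinar sum was highest in delta 4, where Crhr2 was at 1.51 FPKM, and next highest, at 121 FPKM, in delta 1, which had the highest Crhr2 (4.68 FPKM) and the highest Cela1 (95.2 FPKM). Ppy, at 10860 FPKM or above in every delta cell sample and at most 98.1 in beta cells, moved with Crhr2 between these 2 types but was also high in alpha cells, at 17730 FPKM or above, where Crhr2 was near 0. The summed FPKM of 5 endothelial markers was 2.96 to 6.17 in delta, 1.47 to 2.88 in alpha and 0.619 to 3.34 in beta cells, and that of 5 nerve and glia markers 3.45 to 12.4, 1.43 to 7.25 and 1.49 to 7.38. For 5 duct markers the sums were 36.9 to 106.0 in delta, 40.4 to 184.0 in alpha and 14.3 to 32.7 in beta cells, for 6 stroma markers 0.289 to 1.22, 1.93 to 4.95 and 0.0972 to 0.908, and for 5 macrophage markers 0.166 to 2.12, 0.0684 to 1.32 and 0 to 1.70. Besides the acinar list, 5 duct, 2 stroma, 2 nerve and glia, 1 endothelial and 0 macrophage markers entered the fit, so that no macrophage marker could be called. Of these lists 1 duct, 1 stroma and 1 nerve marker were called in a comparison. Among all genes tested, 7.66% were called in beta against alpha, 6.81% in delta against alpha and 14.7% in delta against beta cells. The duct marker Sox9 was at 0.113 to 2.33 FPKM in delta cells and at most 0.0131 FPKM elsewhere, with differences of 1.12 for delta minus alpha (adjusted p = 0.0182, limma) and 1.11 for delta minus beta (adjusted p = 0.0174, limma), so that it was highest in the same cells as Crhr2. The stroma marker Col1a2 was highest in alpha cells (beta minus alpha -1.53, adjusted p = 0.00677; delta minus alpha -1.52, adjusted p = 0.00263, limma). The nerve marker Tubb3 rose in delta against alpha cells by 1.54 (adjusted p = 0.00419, limma). Sox9 passed the filter through delta cells alone and Col1a2 through alpha cells alone. The part of acinar, duct or other cells in the Crhr2 values was not tested.

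Crhr1 (chromosome 11, 104132855 to 104175523, plus strand) was low in every cell type. It was at 0.0562, 0.113, 0.254 and 0.0590 FPKM in the beta cell samples, at 0.428 FPKM in alpha 1 and 0 in the other 4 alpha cell samples, and at 0.0277 FPKM in delta 3 and 0 in the other 5 delta cell samples. Beta cells were the group in which every sample was above 0, and they did not overlap with delta cells, although the highest single value belonged to an alpha cell sample. The value in delta 3 corresponded to about 1.9 reads, and 3 reads corresponded to 0.0439 to 0.175 FPKM in the samples of resolved depth, a range that takes in 3 of the 4 beta cell values. The mean level in all 3 cell types was below the filter of 1 FPKM, so Crhr1 was compared by exact 2-sided permutation tests of log2(FPKM + 1) alone. The difference was -0.15 for delta minus beta (p = 0.00952, exact, the smallest possible), 0.06 for beta minus alpha (p = 0.651, exact) and -0.10 for delta minus alpha (p = 0.909, exact). In the low set alone the difference between delta and beta cells was again -0.15 but did not pass the test (p = 0.0571, exact, the smallest that 4 against 3 samples allow). Without alpha 1, the 1 alpha cell sample above 0, the difference of beta minus alpha was 0.16 and the exact test gave the smallest p its group sizes allow (p = 0.0286), as it must when the other alpha cell samples are all at 0 and no beta cell sample is. The raw p of 13 such comparisons of members was not adjusted over them.

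By mean level, Ucn3 was first of the 7 members in every cell type, although in delta 1 Crhr2 (4.68 FPKM) was above Ucn3 (3.58 FPKM). In beta cells Crhr1 was second, at 0.121 ± 0.0928 FPKM (SD, n = 4), followed by Crhr2 and Crhbp, each above 0 in a single sample and not separable. In delta cells Crhr2 came second, followed by Ucn2 and Crhr1 with means under 0.01 FPKM that were not separable. In alpha cells the means of Crhr1 (0.0855 FPKM) and Crhr2 (0.0141 FPKM) rested on 1 and 2 samples above 0.

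The genes with a profile over the 15 samples most like that of Crhr2 were Olfml3 (r = 0.979), Khdrbs2 (0.965), Gm12454 (0.964), Gm9767 (0.961) and Tmem45b (0.953). Again the points fall into cell types. Olfml3, which encodes a secreted olfactomedin-like protein, was at 0.678 to 2.12 FPKM in delta cells, at most 0.103 FPKM in alpha cells and 0 in all 4 beta cell samples. Khdrbs2, which encodes an RNA-binding protein, was at 1.30 to 4.76 FPKM in delta cells and at most 0.524 FPKM elsewhere, with its highest value, like that of Crhr2, in delta 1. In GENCODE M21, 4 of these 5 genes overlap others, so that reads could belong to the partner, since stranded counting is not stated in the sources used here. Gm12454 is antisense to Car9, Gm9767 overlaps Tmem200a on the opposite strand, Khdrbs2 overlaps Gm5415 on the opposite strand and further unclassified transcripts on its own, and Tmem45b overlaps the pseudogene Gm8162 on its own strand. Of the genes most like Ucn3, Car10, St8sia1, Slc2a2 and Gad1 each overlap a non-coding gene on the opposite strand.

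Genes that act downstream of a Gs-coupled receptor were taken from a list of 24, of which 20 entered the fit. In delta against alpha cells 2 of these rose and 0 fell (median difference 0.50, all genes tested 0.13). In delta against beta cells 5 rose and 1 fell (median 0.58, all genes 0.30), and in beta against alpha cells 1 rose and 1 fell (median -0.10, all genes -0.13). As shares of 20 these counts are to be read against the percentages called among all genes given above.

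The adenylyl cyclases Adcy8 and Adcy2 were the 2 genes higher in delta than in both other cell types. Both passed the filter of 1 FPKM through delta cells alone, so that a call could only have them higher there, and the counts above include them. Adcy8, which makes cyclic AMP in response to calcium and calmodulin, was at a lowest of 1.44, a median of 2.66 and a highest of 3.36 FPKM in delta cells. It did not exceed 0.0894 FPKM in any alpha or beta cell sample. The differences were 1.76 for delta minus alpha (SE 0.224, adjusted p = 7.29e-05, limma) and 1.78 for delta minus beta (SE 0.239, adjusted p = 0.000104, limma). Adcy2 was at 1.56 to 2.53 FPKM in delta cells and at most 0.129 FPKM elsewhere, with differences of 1.52 (SE 0.211, adjusted p = 0.000178, limma) and 1.59 (SE 0.225, adjusted p = 0.000182, limma). Adcy2, like Adcy6 and Rapgef4 below, is named because it was called, a choice made after its values were seen.

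Gnas, a gene that encodes the Gs alpha subunit, differed between beta cells and the rest. Its values are for the whole gene, and its transcripts were not separated. It was at 241.5, 335.6, 196.2 and 139.8 FPKM in beta cells, at 1509, 1423, 866.1, 896.4 and 1856 FPKM in alpha cells, and at a lowest of 903.8, a median of 1169 and a highest of 1339 FPKM in delta cells. Beta cells lay below all samples of the other 2 types. The differences were -2.52 for beta minus alpha (SE 0.388, adjusted p = 0.000589, limma) and 2.38 for delta minus beta (SE 0.373, adjusted p = 0.000444, limma), while delta minus alpha was -0.14 (adjusted p = 0.903, limma).

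Of the remaining called genes, Adcy6, another adenylyl cyclase, rose in delta against beta cells by 1.65 (SE 0.406, adjusted p = 0.0116, limma). The 2 cyclic AMP-activated exchange factors of this list went in opposite directions between delta and beta cells, with Rapgef3 (EPAC1) higher in delta by 1.95 (SE 0.525, adjusted p = 0.0200, limma) and Rapgef4 (EPAC2) lower, with a difference of -1.47 (SE 0.417, adjusted p = 0.0260, limma). Without beta 4 neither passed the test, with 1.92 for Rapgef3 (adjusted p = 0.0550, limma) and -1.17 for Rapgef4 (adjusted p = 0.107, limma). The call of Rapgef4 was also lost without delta 1 (-1.41, adjusted p = 0.0558, limma) and in the low set alone (-1.24, adjusted p = 0.0741, limma). Prkar2b, a regulatory subunit of protein kinase A, rose in beta against alpha cells by 1.82 (SE 0.500, adjusted p = 0.0357, limma), a call that was lost in 7 of the 15 fits that left out 1 sample, with a value of 1.33 without beta 2 (adjusted p = 0.0703, limma).

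**Figure D4:**
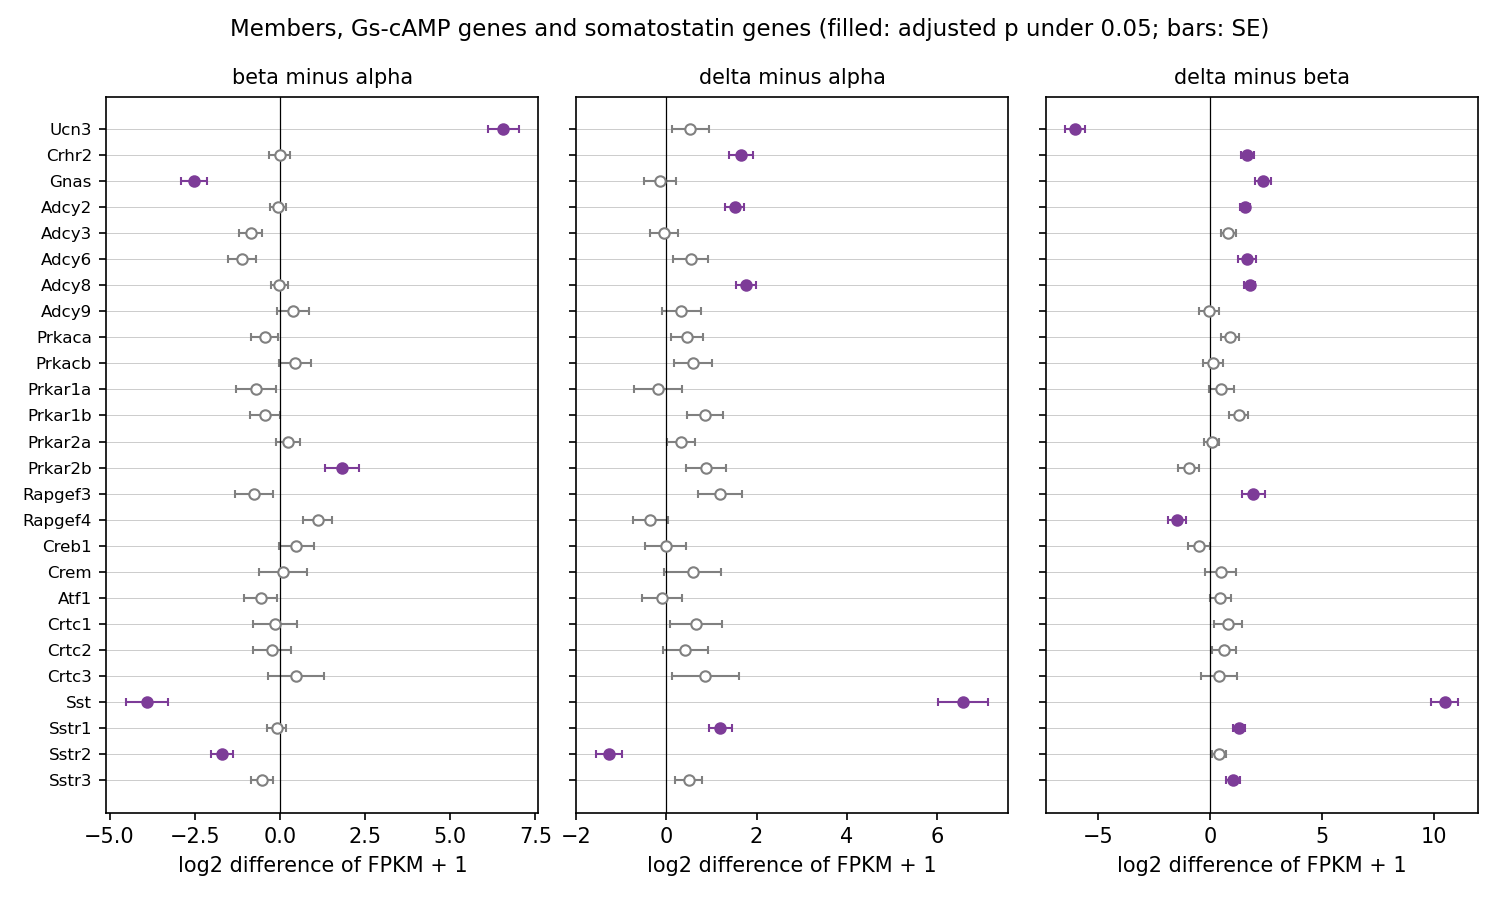
Fitted log2 differences of FPKM + 1 with their SE for the 26 genes tested among the members, the Gs and cyclic AMP list and the somatostatin list, in 3 panels with separate scales (beta minus alpha, delta minus alpha, delta minus beta). Filled points have an adjusted p under 0.05. Ucn3 lies at 6.55 in the first panel and -6.03 in the last, and Crhr2, Adcy2 and Adcy8 lie between 1.52 and 1.78 in the panels for delta cells.

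Among 7 genes of receptor desensitisation (G protein-coupled receptor kinases and arrestins), 0 were called between beta and alpha or between delta and alpha cells, with median differences of 0.30 in each (all genes tested -0.13 and 0.13). In delta against beta cells 1 fell and 0 rose (median -0.10, all genes 0.30), where 14.7% of all genes tested were called. This was Grk5, a receptor kinase, at 4.34, 9.41, 2.97 and 14.1 FPKM in beta cells and 0.647 to 1.75 FPKM in delta cells (difference -1.87, SE 0.411, adjusted p = 0.00586, limma).

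Of 7 genes linked to the processing of peptide precursors, Pcsk1 was called in all 3 comparisons. Pcsk1, the prohormone convertase PC1/3, was at 56.5, 262.6, 79.7 and 155.1 FPKM in beta cells, at 12.7 to 21.4 FPKM in delta cells and at 2.36, 0.842, 0.589, 0.365 and 1.07 FPKM in alpha cells. The 3 cell types did not overlap, with beta highest and alpha lowest. The differences were 5.92 for beta minus alpha (SE 0.425, adjusted p = 3.46e-07, limma), 3.13 for delta minus alpha (SE 0.383, adjusted p = 5.29e-05, limma) and -2.79 for delta minus beta (SE 0.409, adjusted p = 0.000233, limma). The other call was Furin, a convertase of the secretory pathway, higher in delta than in beta cells by 1.48 (SE 0.372, adjusted p = 0.0131, limma), which after division by median-ratio size factors was 1.13 (adjusted p = 0.0863, limma) and without beta 4 was 1.28 (adjusted p = 0.0578, limma). The median differences of this list were 0.01, -0.04 and 0.44, where all genes tested had -0.13, 0.13 and 0.30. Its calls, 1, 1 and 2 of 7 genes, stand beside 7.66%, 6.81% and 14.7% called among all genes.

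Somatostatin and its receptors form the step after CRHR2 in delta cells. Sst drives the sort of delta cells, so its difference is no finding. Of the 5 receptors, 3 entered the fit. Sstr1 was at 0.523 to 2.64 FPKM in delta cells and at most 0.359 FPKM in any other sample, with differences of 1.19 for delta minus alpha (SE 0.258, adjusted p = 0.00770, limma) and 1.29 for delta minus beta (SE 0.275, adjusted p = 0.00464, limma). In the low set alone, the difference between delta and alpha cells was 1.16 and did not pass the test (adjusted p = 0.115, limma). Sstr1 was thus highest in the same cells as Crhr2. Sstr2, the receptor known for restraint of glucagon release, was highest in alpha cells, with differences of -1.70 for beta minus alpha (SE 0.320, adjusted p = 0.00342, limma) and -1.28 for delta minus alpha (SE 0.289, adjusted p = 0.0104, limma). For Sstr3 the difference of delta minus beta was 1.02 (SE 0.313, adjusted p = 0.0380, limma), and this call was lost in 8 of the 15 fits without 1 sample and after size factors (0.62, adjusted p = 0.259, limma). Sstr1 passed the filter through delta cells alone and Sstr2 through alpha cells alone, which sets the direction a call of theirs could take. Of the 3 receptors tested, 0 rose and 1 fell in beta against alpha cells (median -0.53), 1 rose and 1 fell in delta against alpha (0.49), and 2 rose and 0 fell in delta against beta (1.02). All genes tested had medians of -0.13, 0.13 and 0.30, and 7.66%, 6.81% and 14.7% of them were called.

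Of 6 genes known as targets or partners of Crh in the stress axis, 4 entered the fit and 1 was called, in delta against beta cells, where 14.7% of all genes tested were called. Pomc, the precursor of ACTH that Crh induces in the pituitary, was at 1.37, 3.09, 0.445 and 2.01 FPKM in beta cells and at 3.76 to 11.9 FPKM in delta cells, and rose in delta against beta cells by 1.61 (SE 0.356, adjusted p = 0.00601, limma). In alpha cells Pomc was at 2.77 to 6.89 FPKM, a range that overlapped with both. The medians of this list were -0.58 for beta minus alpha, 0.27 for delta minus alpha and 0.89 for delta minus beta, where all genes tested had -0.13, 0.13 and 0.30.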

How the data were processed

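RNA-seq values were the FPKM that the authors deposited for each gene and sample. Per the labels and the study's methods, single-end reads of 50 nucleotides from amplified RNA were aligned to GRCm38 and quantified with Cufflinks, and the submitters' processing notes name TopHat2 2.0.8, Cufflinks 2.2.1 and edgeR. Relative values such as these can shift for all genes when a few hormones take most reads. The 7 members and all lists were chosen with earlier results of these data known. Genes with a mean above 1 FPKM in a cell type (14405) were fitted as log2(FPKM + 1) with limma 3.58.1 (R 4.3.3) over all 15 samples, with an intensity trend, and called at an adjusted p under 0.05. Members were also compared by exact permutation tests (SciPy 1.17.1), without adjustment over members. From each list up to 4 called genes with the largest absolute difference are named, with all members, the islet hormones and the 5 genes most like each fitted member. Depth was estimated from steps in the FPKM of 5024 single-transcript genes over 1000 nucleotides. These steps gave whole reads for part of the values (at most 58.3% within 0.1 of a whole number), so no count test was run. P-values measure the spread between pools of mice. Gene positions are from GENCODE M21 and promoter windows from RefSeq.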

Additional observations from a re-analysis of the deposited data

Results flagged for a closer look

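For the 7 members and 4 hormone genes, 23 groups of values were searched for a sample standing apart within its cell type, and 6 were found. Chance flags about 1 of 20 groups of continuous values, a rate that does not apply to the 4 member groups below, in which a lone value above 0 is always found. Among members, they were Crhr1 in alpha 1 (0.428 FPKM, the other 4 alpha cell samples at 0), Crhr1 in delta 3 (0.0277 FPKM, the other 5 delta cell samples at 0), Crhr2 in beta 4 (0.0265 FPKM, the other 3 beta cell samples at 0) and Crhbp in beta 3 (0.0245 FPKM, the other 3 at 0). Each is a single value above 0 in a group otherwise at 0, and the reads behind the beta cell values are unknown. The other 2 were both in beta 2, with Gcg at 1817 FPKM against 166.0 to 299.0 and Sst at 461.3 FPKM against 37.9 to 89.8 in the other beta cell samples. Beta 2 also held the highest Ucn3 of all samples, 690.2 FPKM.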

How the results depend on the processing

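The 4 calls of members, Ucn3 in beta against alpha and in delta against beta and Crhr2 in delta against alpha and against beta, were kept in each of the 15 fits that left out 1 sample and under the other alternatives that tested them, except the paired block of alpha and beta cells given below. With a filter of 5 FPKM, 2 calls remained because Crhr2 was no longer tested. Over the fits that left out 1 sample, the number of member calls was 4 in each. Adjusted p for Ucn3 in delta against alpha ranged from 0.449 to 0.877. The difference in Crhr2 between beta and alpha cells, -0.01, was 0.064 with the ribosomal set as a covariate and -0.02 to 0.003 with 1 sample left out. The delta minus alpha difference in Crhr1, -0.10, was 0.01 in the low ribosomal set alone, an alternative chosen after seeing the data, and -0.12 to 0.007 with 1 sample left out. In that set the delta minus beta difference in Crhr1, -0.15, did not pass (p = 0.0571, exact permutation test).

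Whether same-numbered samples shared a preparation is not stated, and samples were treated as unpaired. The correlation of same-numbered alpha and beta cell samples was -0.15 to 0.27. That of alpha and delta was -0.12 to 0.28 and that of beta and delta -0.09 to 0.27. Their means, 0.0382, 0.122 and 0.0571, were above those of differently numbered samples, at -0.00978, -0.0245 and -0.0106. The ranges overlapped, so these values do not settle whether the numbers pair the samples. A replicate block over all samples gave 1227, 831 and 2001 calls in beta against alpha, delta against alpha and delta against beta, where the fit without it gave 1104, 981 and 2114, and kept the 4 member calls. Of the 26 genes of the other pathway lists called in delta against beta it lost 5 (Rapgef3, Furin, Sstr3, Neurod1 and Syt4), of the 16 in beta against alpha it lost Prkar2b, and of the 10 in delta against alpha it lost 0. A paired block of alpha and beta replicates 1 to 4 alone gave 0 calls, with 2751 genes at an unadjusted p under 0.05, and Ucn3 at 6.64 (adjusted p = 0.0734, limma).

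Calls in beta against alpha were 520 when only these 2 cell types were fitted, 2088 after size factors and also 2088 after quantile normalization, and 651 to 1698 with 1 sample left out. In delta against alpha they were 518 with a filter of 5 FPKM, 629 in the low ribosomal set alone and 792 to 1115 with 1 sample left out, and in delta against beta 1319 with that filter and 1420 to 2643. Size factors moved the median difference of all genes from -0.13, 0.13 and 0.30 to near 0, and the higher and lower calls from 409 and 695, 768 and 213, and 1683 and 431 to 1107 and 981, 693 and 334, and 1354 and 1302. Calls over the other pathway lists were 6 in delta against alpha with the filter of 5 FPKM. Of 63 called comparisons of other named genes, with 1502 values under the alternatives, 51 values lost the call and 0 reversed. Depth is unknown for all beta cell samples, which limits what a value of 0 shows there.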
